A study of Pimephales promelas with 12 samples.

Results

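The gut and the liver of adult male fathead minnows, a small cyprinid fish used in toxicity testing, were compared through all sequences counted in the 3 gut libraries and the 3 liver libraries, which are 6 of the 12 libraries of the study. The study surveyed baseline expression in tissues of untreated adult males from a laboratory culture, with the hypothalamus and telencephalon of the brain as its other tissues. The labels give gut replicates 1 to 3 and liver replicates 1 to 3 and name no treatment, and the methods describe 3 individual males that were not pooled. Each library came from a piece of whole tissue, so a lower level can come from fewer cells of a type or from less RNA per cell, and these cannot be told apart. Reads were counted on contigs, the assembled sequences that stand for transcripts, and contigs that a library's list left out were set to 0.

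In vertebrates the gut digests food, absorbs nutrients through its epithelium and moves its content with a muscular wall. The liver takes up those nutrients, stores glycogen, makes bile and secretes most of the proteins of the blood plasma. Both arise largely from endoderm and share much of lipid and xenobiotic metabolism, which makes the pair a comparison of neighbouring organs. The contig names hold no gene names. The 11230 names with a sequence identifier are expressed sequence tags, whose identifiers are of another kind than those in the gene table of the species. A lookup by identifier found 0 matches, which does not show that these sequences lack an annotated gene. Contigs could not be linked to genes by name. Roles of single contigs are therefore not given, and the tissue labels could not be checked against marker genes such as intestinal transporters or plasma proteins. No sequence is shown because the files used here hold contig names and counts only.

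Gut libraries held 19301093 to 20801155 counts and liver libraries 14546298 to 16721570. Counts were scaled with edgeR's TMM factors, which correct for composition, and levels are given as CPM, counts scaled to a common library size, after that correction. Gut libraries had factors of 1.22 to 1.23 and liver libraries factors of 0.796 to 0.847, and 3 counts were worth 0.117 to 0.127 CPM in gut and 0.225 to 0.244 CPM in liver. A contig listed at 0 lies below about that level. Reads carried no molecular identifiers, so limits of this kind cover counting error only.

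Gut and liver differed in 8473 of 42878 tested contigs, which is 19.8% of them. Of these, 4611 were higher in gut (10.8% of the tested contigs) and 3862 were higher in liver (9.01%), by edgeR's quasi-likelihood test at a Benjamini-Hochberg adjusted p under 0.05. Before adjustment, 31.2% of the tested contigs had a p under 0.05. Contigs were tested if seen in 2 or more replicates of any of the 4 tissues. The tested contigs thus include 1089 with no count in gut or liver, which could not be called. With the filter on gut and liver only, 8688 of 39785 contigs were called, 4728 higher in gut and 3960 higher in liver. The called differences were large. The median log2 difference, gut over liver, was 2.50 among contigs higher in gut and -2.39 among contigs higher in liver. A test calls large differences more readily, so these medians describe the lists. Over all tested contigs the median was 0.05, but there differences in opposite directions cancel, so that value does not measure their size. At least 10-fold differences were called for 6.78% of the tested contigs, in favour of gut for 1560 (3.64%) and in favour of liver for 1349 (3.15%). At least 100-fold differences were called in favour of gut for 380 contigs and in favour of liver for 411. Few calls were small, with 308 higher in gut and 349 higher in liver by less than 2-fold. The 3 gut and the 3 liver values did not overlap in 8414 of the called contigs, and 59 called contigs overlapped. Over all tested contigs, 20.7% had every gut value above every liver value and 16.5% had every liver value above every gut value.

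The balance between the tissues depended on the scaling. The number of calls fell when any single library was left out, and most without gut replicate 2. With library size alone in place of TMM, 77.6% rather than 54.4% of the calls were higher in gut, and the median log2 difference of contigs that averaged 50 counts or more in gut or in liver was 0.70 in place of 0.12. With upper quartile factors the balance turned round, to 4186 higher in gut and 4268 higher in liver (49.5% higher in gut). Leaving out gut replicate 2 gave 5320 calls, 2933 higher in gut and 2387 higher in liver, and 5264 of these were among the 8473. Leaving out any other single library gave 6214 to 7502 calls. A fit with fewer libraries has fewer degrees of freedom, and the cause of the larger fall without gut replicate 2 was not tested.

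**Figure D1:**
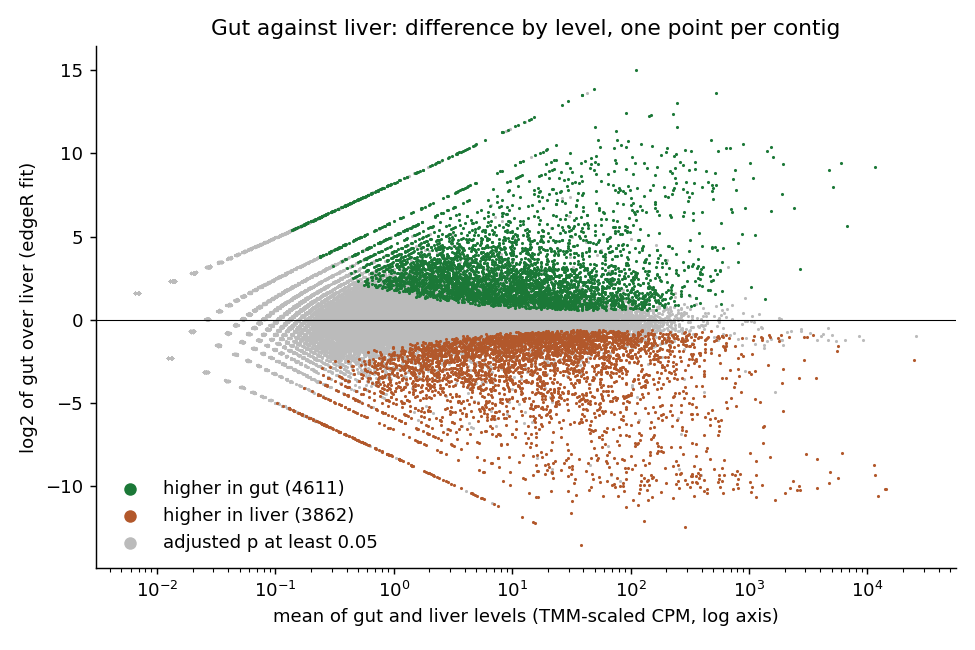
Difference between gut and liver (log2 of gut over liver, vertical axis) against the mean of the gut and liver levels (TMM-scaled CPM, log axis). Each point is a tested contig with a count in gut or liver. Green points (4611 contigs) were higher in gut and brown points (3862 contigs) were higher in liver at an adjusted p under 0.05; the straight lines of points at low levels are contigs with few or no counts in one tissue.

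The contigs called in each direction took up a large part of the RNA of their tissue. Contigs higher in gut held 43.2 ± 1.13% of the counts in gut libraries and 3.77 ± 0.364% in liver libraries (SD, n = 3 each). Contigs higher in liver held 11.8 ± 0.399% of the counts in gut libraries and 58.5 ± 1.91% in liver libraries. The contigs that were not called held 45.0 ± 1.44% in gut and 37.7 ± 2.10% in liver. The contigs chosen as higher in a tissue hold more of its counts by construction, so these shares describe the lists and are no test.

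Liver RNA was spread over fewer contigs than gut RNA. The contigs needed to reach 50% of a library's counts numbered 428, 513 and 454 in gut replicates 1 to 3, against 136, 128 and 149 in liver replicates 1 to 3. Every liver library thus needed under 150 contigs where every gut library needed over 400. The 10 contigs with most counts made up 13.8 ± 0.811% of a gut library and 20 ± 1.22% of a liver library, and the 100 with most counts made up 32.5 ± 0.936% in gut and 46.3 ± 0.870% in liver (SD, n = 3 each). More contigs had a count in gut libraries, 38046 to 38295, than in liver libraries, 35656 to 36005. With every library brought to the depth of the smallest by calculation, there were 37312 to 37577 contigs in gut and 35466 to 35656 in liver. For each of these measures the 3 gut values lay apart from the 3 liver values, and the exact permutation test gave p = 0.1 (two-sided, n = 3 each), the smallest that 3 against 3 libraries allow.

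Calls were more frequent among abundant contigs, and their direction changed with the level. Of the contigs with a mean level of 1 to 10 CPM over the tissues, 23.7% were called, and 60.3% of these were higher in gut. Of those at 10 to 100 CPM, 40.7% were called, with 52.1% higher in gut. Of the 1325 contigs at 100 to 1000 CPM, 343 were higher in gut and 493 higher in liver. Of the 114 contigs at 1000 CPM or more, 18 were higher in gut and 61 higher in liver. The excess of liver calls at 1000 CPM or more was also present with library size alone, 19 higher in gut and 47 higher in liver, whereas the split at 100 to 1000 CPM turned round under that scaling, to 484 higher in gut and 368 higher in liver. The split at 10 to 100 CPM turned to 1581 higher in gut and 1808 higher in liver with upper quartile factors. None of the 6670 contigs under 0.1 CPM was called, and 6.22% of those at 0.1 to 1 CPM were. The lowest class includes the 1089 contigs with no count in gut or liver. A test calls differences more readily where counts are high, so the called shares of the classes do not compare how often levels differ.

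**Figure D2:**
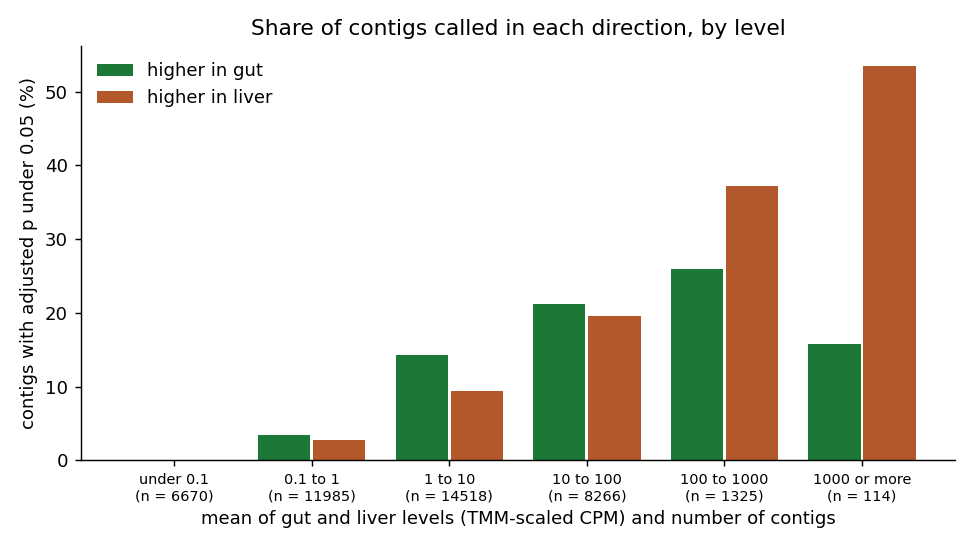
Share of contigs with an adjusted p under 0.05 (vertical axis, in percent) that were higher in gut (green, left bar) or higher in liver (brown, right bar), for 6 classes of mean level in TMM-scaled CPM, with the number of contigs of each class. At 1 to 10 CPM more contigs were higher in gut (2079) than in liver (1366), and at 1000 CPM or more fewer were higher in gut (18) than in liver (61).

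Of the contigs that ranked highest in each tissue, a minority were shared. The lists of the 10 highest contigs by mean level in gut and in liver shared 3, those of the 100 highest shared 36, and those of the 1000 highest shared 432. Among the 100 highest in gut, 52 were called higher in gut, 13 higher in liver and 35 were not called. Among the 100 highest in liver, 0 were called higher in gut, 70 higher in liver and 30 were not called. These ranks follow counts and not counts per length, because the lengths of most contigs were not used here. Contig FHM_All_PTA_Assem.1931.CB1, which stood second in both tissues and was chosen after its values were seen, had 406253, 459410 and 429472 counts in gut replicates 1 to 3, against 418350, 583249 and 322397 counts in liver replicates 1 to 3. Its log2 difference was -0.95 (SE 0.363), and it was not called (edgeR's quasi-likelihood test, adjusted p = 0.117), whereas DESeq2 called it lower in gut (adjusted p = 0.00151). Over all alternatives its log2 difference ran from -1.117 to -0.362, and its adjusted p in edgeR and DESeq2 ran from 0.00151 to 0.755.

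Most contigs were seen in both tissues, and those seen in gut alone outnumbered those seen in liver alone. Counts in both tissues were found for 38604 of the tested contigs, and 29254 had a count in all 6 libraries. A further 1089 tested contigs had no count in either tissue. Counts in gut only were found for 2282 contigs, of which 661 were in all 3 gut libraries, and counts in liver only for 903 contigs, of which 209 were in all 3 liver libraries. The part of the smaller depth of the liver libraries in this difference was not tested. At higher counts there were also more contigs in gut. At least 50 counts in every library of one tissue and 0 in every library of the other were found for 40 contigs in gut and 15 in liver, and at least 500 counts for 9 in gut and 0 in liver. These thresholds are in counts and not in levels. Since 3 counts were worth 0.117 to 0.127 CPM in gut and 0.225 to 0.244 CPM in liver, the same count is a lower level in gut. The part of these unequal limits in the excess of gut contigs was not tested. Of the 2282 contigs seen in gut only, 198 were called higher in gut, and of the 903 seen in liver only, 144 were called higher in liver. Over all tested contigs, 10.8% were called higher in gut and 9.01% higher in liver.

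The contigs named here were taken by rule, in each direction the one with the largest log2 difference and the one with the highest level among at least 10-fold differences. FHM_All_PTA_Assem.631.C2 had 294, 223 and 155 CPM in gut replicates 1 to 3 and was listed at 0 in every liver library. It was at least 2874-fold higher in gut, against a floor of 3 counts over the liver libraries (edgeR's quasi-likelihood test, adjusted p = 0.000119). In the brain libraries it had 2 to 8 counts. The level in gut was within 2-fold between the fish.

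FHM_All_PTA_Assem.750.C1 had 17863, 22725 and 29491 CPM in gut replicates 1 to 3, against 0.861, 3.23 and 116 CPM in liver replicates 1 to 3. The gut values were within 2-fold of each other, while liver replicate 3 stood far above the other liver libraries. The log2 difference was 9.19 (SE 2.0), and the mean level was 584-fold higher in gut (edgeR's quasi-likelihood test, adjusted p = 0.0156). Without liver replicate 3 the log2 difference was 13.48, and without gut replicate 2 the adjusted p was 0.0519 (same edgeR test).

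FHM_All_PTA_Assem.3237.C1 was listed at 0 in every gut library, against 72.2, 132 and 26.8 CPM in liver replicates 1 to 3. It was at least 1910-fold lower in gut, against a floor of 3 counts over the gut libraries (edgeR's quasi-likelihood test, adjusted p = 0.00099), and had 0 to 36 counts in the brain libraries. FHM_All_PTA_Assem.639.C1 had 39.6, 2.54 and 32.5 CPM in gut replicates 1 to 3, against 34341, 24712 and 26350 CPM in liver replicates 1 to 3. Its log2 difference was -10.16 (SE 1.20; adjusted p = 0.000984, same edgeR test). Gut replicate 2 had a more than 10-fold lower level than the other gut libraries.

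**Figure D3:**
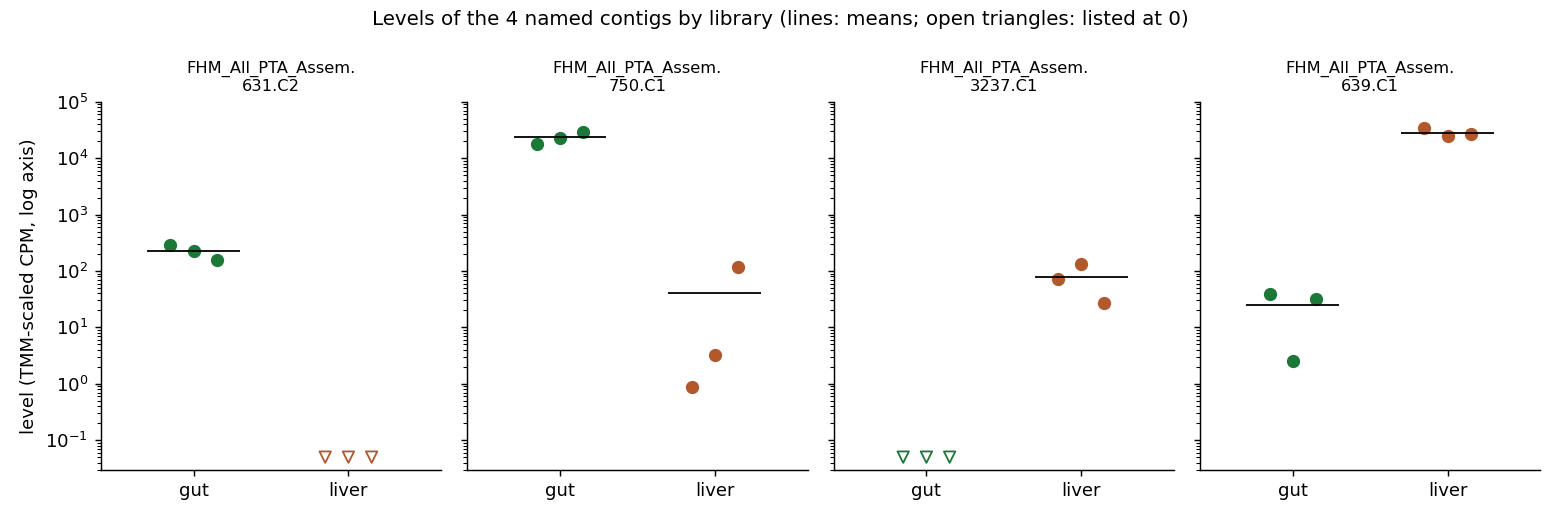
Levels (TMM-scaled CPM, log axis) of the 4 named contigs in the gut libraries (green, left) and the liver libraries (brown, right), ordered by replicate number within a tissue, with lines at the means and open triangles for libraries listed at 0. FHM_All_PTA_Assem.750.C1 shows a liver library at 116 CPM beside others at 0.861 and 3.23 CPM, and FHM_All_PTA_Assem.639.C1 a gut library at 2.54 CPM beside others at 39.6 and 32.5 CPM.

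The low levels of liver-abundant contigs in gut, and of gut-abundant contigs in liver, differed between libraries of a tissue. There were 56 contigs called higher in liver with at least 1000 CPM there and at least 100-fold less in gut, on a scale set over all 12 libraries. As a percentage of the mean liver level, their median was 0.161% in gut replicate 1, 0.042% in gut replicate 2 and 0.172% in gut replicate 3. In brain libraries, scaled alike, the median was 0.041 to 0.0659%. Gut replicate 2 was thus near the brain libraries and the other gut libraries were above them, and gut replicate 2 was the lowest gut library for 46 of the 56 contigs. For the 32 contigs defined the same way in gut, the median was 0.11%, 0.0621% and 0.424% of the mean gut level in liver replicates 1 to 3, and 0.0648 to 0.108% in brain libraries. Liver replicate 3 was the highest liver library for 26 of the 32. What these low levels come from, and whether they are expression in the tissue itself, was not tested. The methods describe a single sequencing lane for the libraries. Without gut replicate 2, 28 of the 32 contigs were called higher in gut and 55 of the 56 higher in liver, and without liver replicate 3 the numbers were 30 and 55.

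**Figure D4:**
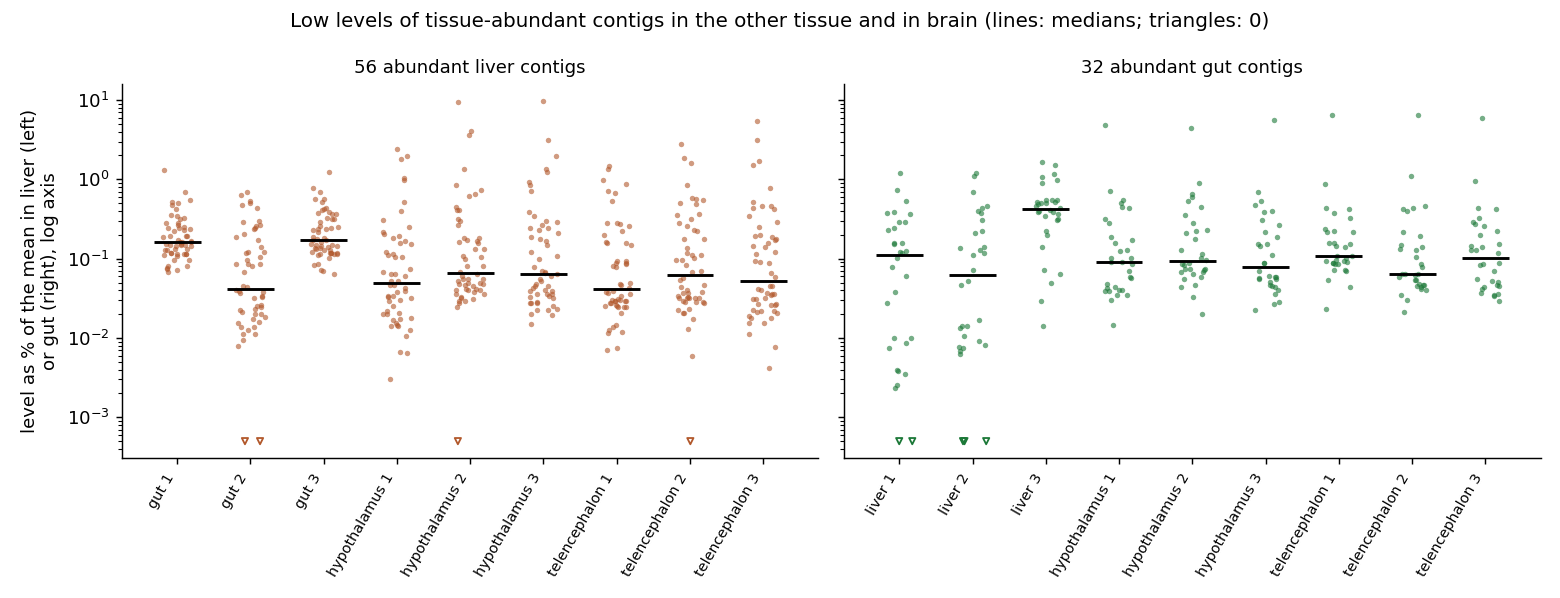
Left, the level of 56 abundant liver contigs in the gut and brain libraries, as a percentage of their mean level in liver; right, the level of 32 abundant gut contigs in the liver and brain libraries, as a percentage of their mean level in gut (log axes; one point per contig and library, lines at the medians, open triangles for libraries at 0). The median is lowest among gut libraries in replicate 2 (0.042%) and highest among liver libraries in replicate 3 (0.424%).

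Some contigs higher in gut had most of their liver counts in liver replicate 3. Among the 4611 contigs called higher in gut, 11 had at least 50 counts in liver replicate 3 and at least 10-fold more there than in both other liver libraries. By the same rule there were 2 contigs for liver replicate 1 and 0 for liver replicate 2. Their mean levels in gut ran from 78.7 CPM to the 23360 CPM of FHM_All_PTA_Assem.750.C1, and the 11 held 5.81%, 7.19% and 8.68% of the counts of gut replicates 1 to 3, against 0.000229%, 0.00055% and 0.0244% of the counts of liver replicates 1 to 3. Without liver replicate 3 all 11 were called, with a median log2 difference of 13.62 against 9.19 in the main fit. The 11 were chosen by their level in that library, so this rise follows from the rule. Without gut replicate 2, 8 of the 11 were called. By the mirrored rule, contigs called higher in liver with 1 outlying gut library numbered 1 for gut replicate 1, 0 for gut replicate 2 and 1 for gut replicate 3.

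Levels within a tissue were close for most contigs, and some contigs followed the replicate number in both tissues. Of the contigs that averaged 50 counts or more, 77.8% of 18745 in gut and 73.1% of 13995 in liver had their 3 libraries within 2-fold, and 3.29% in gut and 4.0% in liver spanned 10-fold or more. The median SD of log2(CPM + 1) over replicates was 0.251 in gut and 0.294 in liver. Deviations from the tissue mean of log2(CPM + 1) correlated across 19935 contigs between gut and liver libraries of the same number, with Pearson r of 0.516, 0.425 and 0.427 for numbers 1 to 3, against -0.314 to -0.0579 between different numbers. Within a tissue the deviations of the 3 libraries cancel out for each contig. Positive same-number values therefore force negative different-number values on average, and the latter are no separate evidence of pairing. Contigs are not independent replicates, and these values are a description. The number was read as the fish, which the labels do not state, and the calls given here come from the fit without pairing. With the replicate number as a block there were 10704 calls, 5849 higher in gut and 4855 higher in liver.

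Of 12805 contigs that averaged 50 counts or more in each tissue, a few were at least 4-fold above both other fish. Some contigs reached that average only through the fish where they were high. Contigs high in a single fish in one tissue and low in the other tissue could thus drop out of the base. This can raise the shares of a list found in both tissues, so these shares describe the lists and are no test. In fish 1 this held for 90 contigs in gut (0.703%) and 108 in liver (0.843%), and 62 contigs were in both lists, 68.9% of the gut list and 57.4% of the liver list. In fish 2 it held for 21 contigs in gut (0.164%) and 59 in liver (0.461%), with 15 in both, 71.4% of the gut list and 25.4% of the liver list. In fish 3 it held for 33 in gut (0.258%) and 61 in liver (0.476%), with 22 in both, 66.7% of the gut list and 36.1% of the liver list. For the contigs in both lists of fish 1, the median level was 21.3 CPM in gut and 29.2 CPM in liver, against 1.64 CPM in gut and 1.82 CPM in liver of the other fish.

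The brain libraries mostly had the same fish high. They took no part in the 4-fold rule, but they did count in the filter on tested contigs. Some contigs of these lists were listed at 0 in gut and liver of both other fish. Such contigs passed that filter only through a brain region. The library of fish 1 was the highest in hypothalamus and in telencephalon for 55 of its 62 contigs (88.7%), where this held for 16.2% of the 12805 contigs. For fish 2 it held for 11 of 15 (73.3%), against 17.1% of all, and for fish 3 for 20 of 22 (90.9%), against 8.62% of all. At least 4-fold in both brain regions was found for 42, 11 and 15 of the contigs of fish 1 to 3 (67.7%, 73.3% and 68.2%). Of all 12805 contigs, this held for 0.867%, 0.187% and 0.148%.

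Single contigs, chosen after their values were seen, show the pattern. FHM_All_PTA_Assem.117.C1 had 10606, 9 and 8 counts in gut replicates 1 to 3, against 5345, 3 and 39 counts in liver replicates 1 to 3. The PacBio isoform c3634/f1p0/1795 had 1, 3182 and 0 counts in gut replicates 1 to 3, against 2, 2679 and 5 counts in liver replicates 1 to 3. FHM_All_PTA_Assem.598.C2 had 6, 0 and 3867 counts in gut replicates 1 to 3, against 27, 2 and 3779 counts in liver replicates 1 to 3. Each was high in a single fish in both tissues, and in the brain libraries of that fish alone, where the counts were 2597 to 3148 for the first, 1013 to 1211 for the second and 1462 to 1481 for the third. The first 2 were called in no alternative, while the third passed with the replicate number as a block (adjusted p = 0.0342, edgeR's quasi-likelihood test).

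The reverse, a single fish far below the others, was seen in 2 called contigs, chosen after their values were seen because their mean was at least 1000 CPM in the higher tissue with 1 of its libraries over 100-fold below the median. FHM_All_PTA_Assem.4607.C2 had 49, 0 and 122 counts in gut replicates 1 to 3, against 31815, 44 and 22758 counts in liver replicates 1 to 3. It was low in fish 2 in liver and listed at 0 in its gut and both its brain libraries, and its call as higher in liver (adjusted p = 0.0374, edgeR's quasi-likelihood test) was lost without gut replicate 1 (adjusted p = 0.114, same edgeR test). FHM_All_PTA_Assem.728.C1 had 46441, 31434 and 6 counts in gut replicates 1 to 3, against 0, 1 and 2 counts in liver replicates 1 to 3. It was low in the gut of fish 3 alone, and its call as higher in gut (adjusted p = 0.0162, edgeR's quasi-likelihood test) was lost without liver replicate 2 (adjusted p = 0.0701, same edgeR test). The other contig of its assembly cluster, FHM_All_PTA_Assem.728.C2, was not low in that fish, with 159384, 291563 and 243010 counts in gut replicates 1 to 3, against 5, 8 and 678 counts in liver replicates 1 to 3.

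**Figure D5:**
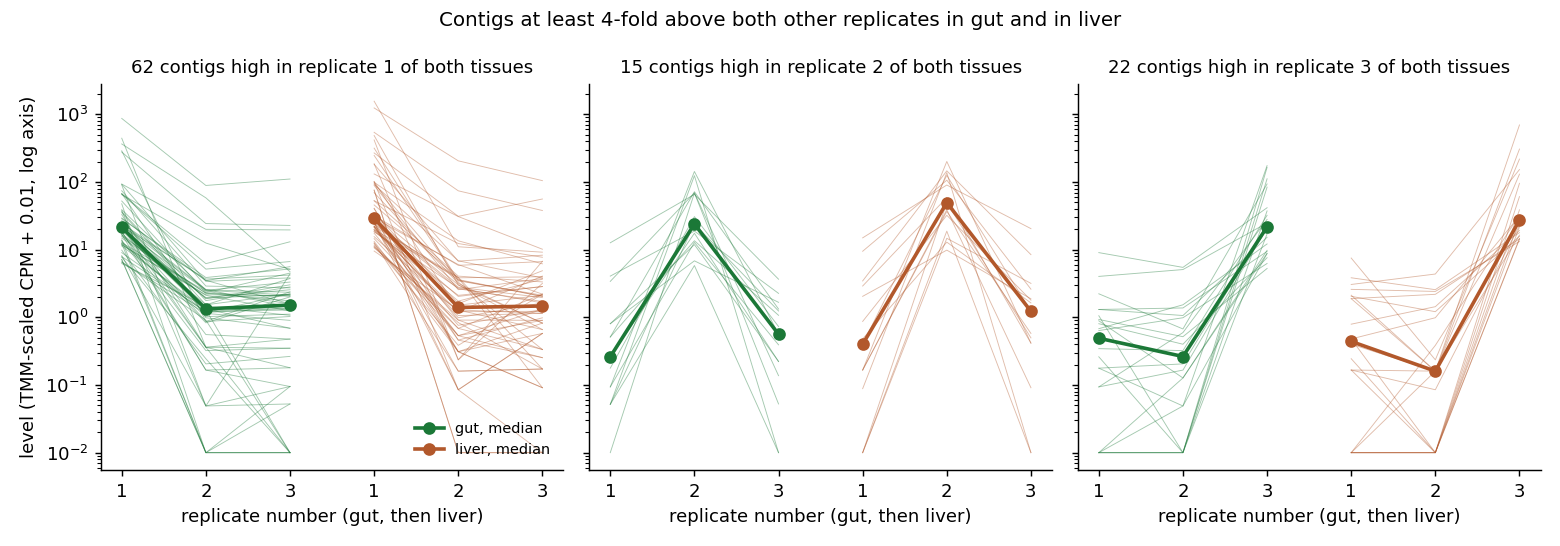
Levels (TMM-scaled CPM + 0.01, log axis) by replicate number in gut (green, left in each panel) and liver (brown, right in each panel) of the contigs at least 4-fold above both other replicates in both tissues, with 62 contigs for replicate 1, 15 for replicate 2 and 22 for replicate 3. Thin lines are contigs and thick lines medians; for replicate 1 the median was 21.3 CPM in gut and 29.2 CPM in liver of that fish.

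The kinds of contig differed in how often they were called. Of 20719 contigs from the Paracel assembly, 24.2% were called, 2862 higher in gut and 2154 higher in liver. Of 4456 PacBio isoforms 17.3% were called, 438 higher in gut and 332 higher in liver, and of 9806 expressed sequence tags 12.4% were called, 703 and 516. Single sequences were the one large kind with more calls higher in liver, 601 higher in gut and 815 higher in liver of 7563 (18.7% called). They held 3.81% of the gut counts and 7.06% of the liver counts. A single contig, Singlet_12255, made up part of that gap and was chosen after its values were seen. It had 428, 96 and 647 counts in gut replicates 1 to 3, against 171213, 453091 and 333880 counts in liver replicates 1 to 3. With library size alone 65.2% of the called single sequences were higher in gut, against 42.4% under TMM. Where 50 counts in 3 libraries were required, the share under TMM was 50.2%. In the remaining alternatives it was 38.5 to 44.9%. All of these shares stand beside the 19.8% called over all contigs and are not tested. The kinds also differed in abundance. Paracel contigs held 84.8% of the gut counts and 83.4% of the liver counts, and expressed sequence tags 5.52% and 4.42%. Calls were more frequent at higher levels, and the part of level in the differences between kinds was not tested.

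PacBio isoforms carry their length in their names, which allows levels per length. The 4456 tested isoforms were 467 to 6755 nt long. The share called varied little with length, from 16% of 1119 isoforms under 1000 nt to 18.9% of 328 isoforms of 3000 nt or more. Over isoforms that averaged 50 counts or more in gut or in liver, the median log2 difference was 0.31 for 407 isoforms under 1000 nt and 0.01 for 163 isoforms of 3000 nt or more. The difference between the length classes was not tested. The isoform with the highest level per length in both tissues, c33269/f1044p170/780, had 4295, 8263 and 9361 CPM per kb in gut replicates 1 to 3, against 9555, 19170 and 14170 CPM per kb in liver replicates 1 to 3. It was not called (log2 difference -0.97, SE 0.425; adjusted p = 0.169, edgeR's quasi-likelihood test). The second highest isoform per length in gut, of 796 nt, had 6504, 3307 and 794 CPM per kb in gut replicates 1 to 3, against 5.60, 2.64 and 1.12 CPM per kb in liver replicates 1 to 3. The second in liver, of 946 nt, had 3.32, 0.743 and 5.39 CPM per kb in gut replicates 1 to 3, against 3145, 5370 and 4394 CPM per kb in liver replicates 1 to 3. These isoforms were called, with log2 differences of 10.14 (SE 1.13) and -10.41 (SE 0.899) and adjusted p of 0.000761 and 0.000268 (edgeR's quasi-likelihood test).

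Contigs of the Paracel assembly fall into clusters of related sequences. Of 3676 clusters with at least 2 tested contigs, 417 had at least 2 calls. In 182 of these every call was higher in gut, in 194 every call was higher in liver, and 41 (9.83%) had calls in both directions. The number with both directions was 23 without gut replicate 2, 65 with the replicate number as a block, 64 with DESeq2 and 16 with a 2-fold threshold. In cluster 798, chosen after its values were seen, contig FHM_All_PTA_Assem.798.C1 had 17636, 26386 and 35075 counts in gut replicates 1 to 3, against 1712, 942 and 1123 counts in liver replicates 1 to 3. The other contig of the cluster, FHM_All_PTA_Assem.798.C2, had 11, 70 and 69 counts in gut replicates 1 to 3, against 111, 492 and 452 counts in liver replicates 1 to 3. Their log2 differences were 3.46 (SE 0.384) and -3.74 (SE 0.794), with adjusted p of 0.00073 and 0.0141 (edgeR's quasi-likelihood test). Only uniquely mapped reads were counted, so reads that fit several contigs of a cluster are missing and the levels of related contigs are uncertain.

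Brain levels, on the scale of all 12 libraries, lay between gut and liver for 48.9% of the contigs higher in gut and for 41.5% of those higher in liver. For 22.7% of the contigs higher in gut the mean brain level was at or above that of gut, and for 28.4% it was at or below that of liver. For 14.3% of the contigs higher in liver the mean brain level was at or above that of liver, and for 44.3% it was at or below that of gut. A brain level under 10% of that of the higher tissue was found for 1135 (24.6%) of the contigs higher in gut and for 1261 (32.7%) of those higher in liver. No share over all tested contigs stands beside these values, so they describe the lists.

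Some large differences were not called. Estimates of at least 10-fold with an adjusted p of at least 0.05 were found for 1511 contigs, most of them with few counts. Of the 131 that averaged 50 counts or more in the higher tissue, 69 were higher in gut and 62 higher in liver by the estimate, and in 59 one library held over 90% of the scaled level of that tissue. The most abundant, FHM_All_PTA_Assem.2572.C1, had 5049, 3283 and 3079 counts in gut replicates 1 to 3, against 93907, 27104 and 689 counts in liver replicates 1 to 3 (adjusted p = 0.0642, edgeR's quasi-likelihood test). Of the 12805 contigs that averaged 50 counts or more in each tissue, 3912 (30.6%) were called, 1737 higher in gut and 2175 higher in liver. A further 6247 were not called with estimates within 1.5-fold, which does not show that their levels are equal.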

How the data were processed

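RNA from gut and liver of 3 males was sequenced in 6 libraries, and the hypothalamus and telencephalon gave 6 more. Per the methods, the authors prepared oligo-dT libraries, trimmed reads with Cutadapt, mapped them with bowtie 2 (at most 3 mismatches), discarded likely PCR duplicates and multiply mapped reads, and counted with scripts of their own. No source used here gave versions for trimming and mapping. The methods name both the study's consensus sequences and zebrafish sequences as mapping target. The deposited values are raw counts, 1 whole number per contig, and list only contigs that had a count. Lists were joined by name into 46309 contigs. The labels' processing notes also name SAMtools, DESeq and edgeR.

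A contig was tested (42878) where 1 of the 4 tissues had it in 2 or more replicates. The test was edgeR 4.0.16 in R 4.3.3, as gut over liver with TMM factors of the 6 libraries, the quasi-likelihood test and Benjamini-Hochberg adjustment at 0.05, after a test on simulated data. SE is the absolute log2 difference over the square root of F. Named contigs needed the same direction in all 3 same-number pairs, and either 50 counts or more in each library of the tissue where they were higher, for the largest log2 difference, or a 10-fold difference or more, for the highest level. Alternatives were edgeR's exact test, DESeq2 1.42.0, a fit of all tissues, other scalings and filters, a 2-fold threshold, the replicate number as a block, and leaving out libraries. The block was an alternative because the study's methods name none. The labels number the replicates alike in each tissue, the methods name 3 fish, and all same-number correlations exceeded 0.1, so the numbers were taken to pair the libraries. Replicates differed by 36.0 to 63.6 in chi-square per degree of freedom, far beyond sampling noise, so each counted as a separate sample. Lists and rules were chosen with earlier results of these data known. Marker lists could not be looked up without gene names.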

Additional observations from a re-analysis of the deposited data

How the results depend on the processing

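In all alternatives run, the 4 named contigs kept their direction, and 3 of them stayed under an adjusted p of 0.05 (edgeR and DESeq2); for FHM_All_PTA_Assem.750.C1 the highest adjusted p was 0.141. The 8473 calls became 4615 (2534 higher in gut, 2081 higher in liver) against a 2-fold threshold. With library size alone 8576 were higher in gut and 2479 higher in liver. With the replicate number, read as the fish, as a block there were 10704 calls (5849 higher in gut, 4855 higher in liver). Of these, 8322 were among the 8473, and the block changed the call of none of the 4. Calls of at least 10-fold numbered 1908 where 50 counts in 3 libraries were required. Clusters with calls in both directions numbered 64 with DESeq2, 65 with the block and 16 with the 2-fold threshold, against 41.

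The share of gut counts in contigs higher in gut and of liver counts in contigs higher in liver was 45.24% and 68.52% with DESeq2, 45.04% and 63.61% in a fit of all tissues, 55.34% and 49.6% with library size alone, 41.55% and 60.57% with upper quartile factors, 45.83% and 66.16% with the block, and 34.47% and 46.55% with the 2-fold threshold. The liver share was 61.31% with the filterByExpr filter and 62.45% with 50 counts in 3 libraries.

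Leaving out a replicate, in one tissue or in both, gave 2917 to 7502 calls, 1538 to 4021 higher in gut and 1379 to 3481 higher in liver, 1636 to 2857 of at least 10-fold, 9 to 38 clusters with both directions, and shares of 24.07 to 41.11% in gut and 44.4 to 57.04% in liver. The fewest calls came without replicate 2 in both tissues; a fit with 2 libraries in a tissue has fewer degrees of freedom, and the cause was not tested beyond that. Of the contigs under 0.1 CPM none was called with TMM, and 5 were with library size alone.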
